A study of Homo sapiens with 6 samples.

Results

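SCG5, the granin-like chaperone of a prohormone convertase, was measured here together with 9 relatives of the secretory processing pathway: the granin precursor SCG2, the proprotein convertases PCSK1, PCSK2, PCSK5, PCSK6, PCSK7 and FURIN, the carboxypeptidase CPE and the amidating enzyme PAM. The 10 genes were chosen by name from the deposited tables of 35819 genes, and the set was chosen for the fall of SCG5 in these same libraries, so the difference of SCG5 is given below as a description without a test. The other 9 were taken as its relatives. After a filter on low counts, 6 of the 10 entered the test among 13965 genes in all, and 4 were left with too few counts.

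Proprotein convertases are serine proteases of the secretory pathway that cut precursor proteins after paired basic residues. FURIN, PCSK5, PCSK6 and PCSK7 act in the trans-Golgi network, at the cell surface or outside the cell on growth factors, receptors, adhesion proteins and metalloproteases, and most cell types use at least some of them. PCSK1 and PCSK2 belong to the dense-core granules of neuroendocrine cells, where CPE trims the basic residues left by the cut and PAM amidates the end of the peptide. SCG5 binds the inactive form of the PCSK2 protein, helps it through the secretory pathway and holds it inactive until late.

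The libraries were made from HT1080, a human fibrosarcoma line, as total RNA after ribosomal RNA was depleted. The groups were 3 libraries of TOP3B knockout cells, which carry a CRISPR edit made with a guide against exon 2 of the topoisomerase III-beta gene, and 3 libraries of wild-type (WT) cells. The knockout came from 1 clone, E2-2, so a difference between the groups is a difference between that clone and the WT cells. In 1 place the series text calls the WT line HCT116, but each of the 6 libraries is labelled HT1080. Nothing in the labels says that the replicates were grown as separate cultures. The p-values below therefore reflect how far these libraries spread, and part or all of that spread may be technical.

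Total estimated counts lay between 18501898 and 20340136 in the knockout and between 17919106 and 20475280 in WT. Knockout replicate 3 stood apart: over 6456 well-counted genes the SD of its log2 difference from the other knockout libraries was 0.641 and 0.615, against 0.240 between those libraries, and mitochondrial genes took 5.70% of its counts, against 8.23% to 10.0% in the other 5 libraries. Fitted values that it moves strongly are given with and without it. TOP3B itself had 20.0, 19.3 and 18.5 CPM (the estimated count scaled to library size) in the knockout, against 30.5, 19.1 and 23.1 CPM in WT. This does not check the labels, since an edit in an exon need not lower the transcript. Mesenchymal markers were led by VIM and CD44, and the 8 listed summed to between 12702 and 13090 CPM in the knockout, against 12650 to 13753 CPM in WT, although THY1 and NT5E were at or near 0. Of 10 neuroendocrine markers 7 were measured and summed to between 100 and 111 CPM in the knockout, against 99.0 to 105 CPM in WT, mostly from NCAM1 and ENO2. The granin CHGA was at 0 in every library, and UCHL1 and DDC were at or near 0. The 7 epithelial markers summed to 108 to 129 CPM in the knockout and 105 to 117 CPM in WT, mainly from KRT8 and KRT18. CDH1 averaged 1.63 CPM in the knockout and 1.97 CPM in WT, and EPCAM, KRT5, KRT19 and ESRP1 were under 1 CPM in every library.

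The starts of SCG5 and FURIN are shown because these were the members lower in all 3 knockout libraries. The windows run from 250 bases before to 50 bases after a RefSeq transcript start on GRCh38.p14, both on the plus strand, at chr15:32641460-32641759 for SCG5 and at chr15:90868338-90868637 for FURIN, the most upstream of 4 FURIN windows. Capitals mark the letters of a GC box, the short GC-rich element that Sp-family factors are known to bind.
SCG5: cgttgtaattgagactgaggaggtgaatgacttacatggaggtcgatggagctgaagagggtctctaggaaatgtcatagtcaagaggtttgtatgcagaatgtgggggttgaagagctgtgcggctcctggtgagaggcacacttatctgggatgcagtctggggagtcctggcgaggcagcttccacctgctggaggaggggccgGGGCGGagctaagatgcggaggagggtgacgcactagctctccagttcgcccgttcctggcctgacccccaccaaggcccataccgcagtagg
FURIN: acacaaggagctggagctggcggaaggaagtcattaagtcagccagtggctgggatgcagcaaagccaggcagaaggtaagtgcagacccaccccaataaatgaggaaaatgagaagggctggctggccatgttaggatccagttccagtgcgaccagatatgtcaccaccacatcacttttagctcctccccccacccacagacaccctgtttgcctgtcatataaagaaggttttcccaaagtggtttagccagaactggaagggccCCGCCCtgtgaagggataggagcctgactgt
Both windows held 1 GC box (GGGCGG or its reverse complement CCGCCC), which began 43 bases before the start in SCG5 and at base 20 after the start in FURIN. The letters GGGCGG or CCGCCC are common, since 45.0% of the 35116 windows of this length held them. On both strands neither window held a cyclic AMP response element (TGACGTCA, in 1.85% of all windows), an AP-1 element (TGACTCA or TGAGTCA, in 4.95%), an E-box (CACGTG, in 7.26%) or the hypoxia core (ACGTG or CACGT, in 21.4%, part of which are E-boxes, since these contain it). GC content was 58% in the SCG5 window and 53% in that of FURIN, against a median of 58.7% over all windows. The other 3 FURIN windows differed from the one shown, with a GC content of 80%, 78% and 57% and with 4, 3 and 0 GC boxes. A match or its absence describes the letters of the window and says nothing of binding. RefSeq windows were found for 9 of the 10 members.

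SCG5, the chaperone, lies on chromosome 15 (GRCh38, GENCODE v29, ENSG00000166922.8) at chr15:32641676-32697098 on the plus strand. Its CPM was 64.7, 64.0 and 65.4 in the 3 knockout libraries, against 193, 216 and 220 in WT, from 1316, 1271 and 1279 estimated counts in the knockout and 3382, 4255 and 4475 in WT. The groups were far apart, and the knockout libraries lay closer together than those of any other tested member: the highest was 1.02 times the lowest in the knockout, and 1.14 times in WT. Mean levels were 64.7 ± 0.728 CPM in the knockout and 209 ± 14.8 CPM in WT (SD, n = 3 each). The fitted log2 fold change, knockout over WT, was -1.69 ± 0.09 (SE), or 3.24-fold lower, and it lay between -1.76 and -1.66 when any 1 library was left out. On the scale of the deposited RPKM (read count scaled by gene length and library size) the means were 1.81 ± 0.0752 in the knockout and 5.63 ± 0.416 in WT. Among the 13965 tested genes 232 had a lower log2 fold change than SCG5. In these bulk libraries fewer expressing cells and less RNA per cell cannot be told apart.

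SCG2, a granin that is stored in dense-core granules and cut into secretoneurin, had 0 counts in all 6 libraries. A count of 0 allows a level of up to 0.148 to 0.171 CPM, which is the worth of 3 counts in these libraries and covers counting error only. PCSK2, the convertase that SCG5 attends, had 5, 6 and 5 counts in the knockout, against 6, 4 and 5 in WT. Its RNA was thus near the floor in both groups, and a difference was not detectable at this depth. PCSK1, the other granule convertase, had 0 counts in the 3 knockout libraries and in WT replicates 2 and 3, and 27 counts in WT replicate 1. CPE, the carboxypeptidase, had 5, 0 and 0 counts in the knockout, against 70, 2 and 2 in WT. The CPE and PCSK1 counts of WT came mostly from that same WT library. None of these 4 genes entered the test. REST, a repressor of neuronal genes that non-neural cells are known to express, was also listed at 0 in all 6 libraries, so a listed 0 is not read here as absence.

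FURIN, the trans-Golgi convertase that most cells use, was the most abundant convertase in both groups (chr15:90868592-90883458, plus strand, ENSG00000140564.11). Its CPM was 464, 482 and 429 in the knockout, against 820, 857 and 807 in WT. All 3 knockout libraries were below all 3 WT libraries. The means were 458 ± 27.3 CPM in the knockout and 828 ± 25.9 CPM in WT (SD, n = 3 each), and FURIN fell by 1.81-fold, a log2 fold change of -0.85 ± 0.08 (SE) with an adjusted p of 0.00338 (edgeR's quasi-likelihood test with Benjamini-Hochberg adjustment over all genes tested). FURIN passed an adjusted p of 0.05 in each of the 6 fits that left 1 library out, with a log2 fold change between -0.89 and -0.82 and a highest adjusted p of 0.0307. It also passed in all 10 fits with another tool, scaling or filter, with values between -0.87 and -0.79.

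Of the 5 tested members other than SCG5, FURIN was the 1 that passed, and it was lower in the knockout. Of all 13965 genes 7.84% passed, 4.63% lower and 3.21% higher in the knockout. No member passed in the higher direction by edgeR, and at an unadjusted p of 0.05 or by DESeq2 FURIN was again the 1 of these 5 that passed. The knockout libraries did not overlap with WT in 2 of the 5, FURIN and PCSK7, against 33.6% of all genes tested. With 5 genes these shares cannot be set apart from those of all genes.

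**Figure D1:**
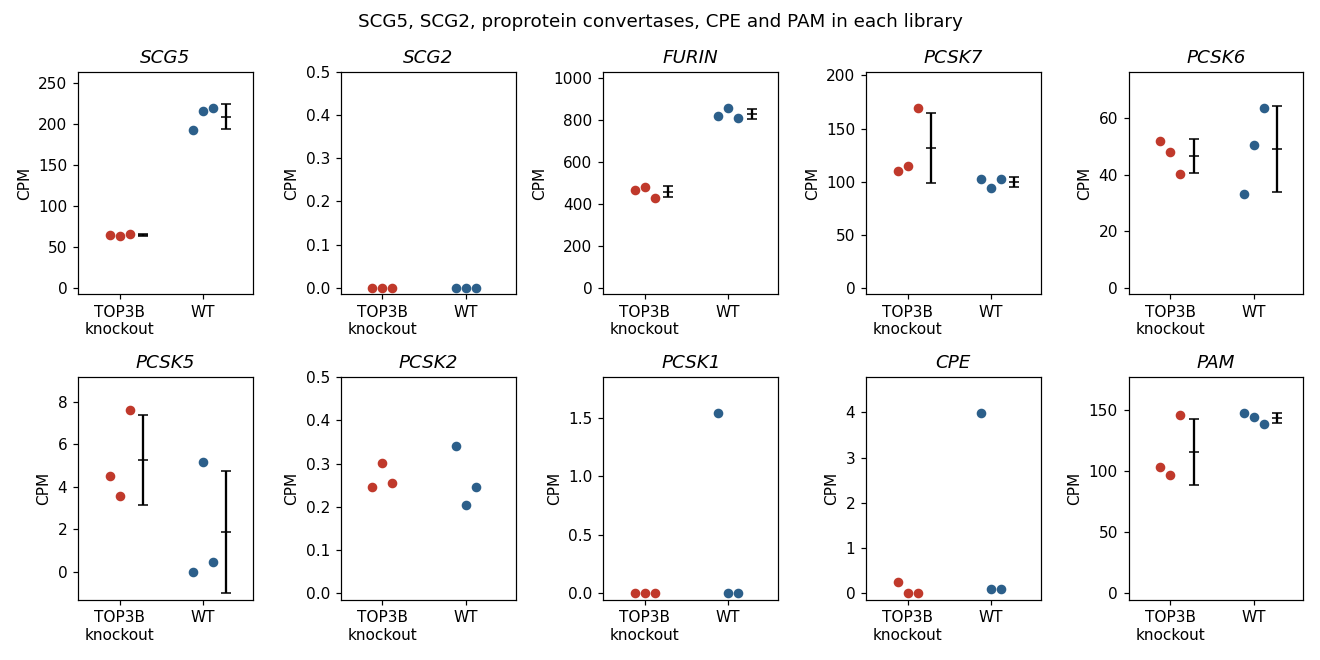
CPM (TMM-scaled) of the 10 genes in each library, with the 3 TOP3B knockout libraries left of the 3 WT libraries in every panel and a vertical axis of its own per gene; bars give the mean ± SD of the 6 tested genes. SCG5 lay at 64.0 to 65.4 CPM in the knockout, against 193 to 220 CPM in WT, and SCG2 was at 0 throughout.

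PCSK7, a convertase of the trans-Golgi network and cell surface known to cut the transferrin receptor, had 110, 114 and 169 CPM in the knockout, against 102, 94.1 and 102 CPM in WT (chr11:117204337-117232525, minus strand). Every knockout library was above every WT library, but replicate 3 lay far above the other knockout libraries. The log2 fold change of 0.40 ± 0.18 (SE) had an adjusted p of 0.219 (edgeR's quasi-likelihood test with Benjamini-Hochberg adjustment) and was 0.17 without knockout replicate 3. The annotated span of PCSK7 overlaps that of TAGLN, an actin-binding protein gene on the opposite strand, which had 314, 333 and 282 counts in the knockout, against 1496, 1617 and 1294 in WT. The kit was directional, but no source used here states whether the counting took strand into account, so reads of PCSK7 and TAGLN cannot be told apart where they overlap.

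PCSK6, a secreted convertase that is held at heparan sulfate on the cell surface, had 51.9, 47.9 and 40.1 CPM in the knockout, against 33.2, 50.3 and 63.6 CPM in WT (chr15:101297142-101525202, minus strand). The WT libraries spanned a wider range than those of the knockout and enclosed them. Its log2 fold change was -0.07 ± 0.24 (SE) with an adjusted p of 0.877 (edgeR's quasi-likelihood test with Benjamini-Hochberg adjustment), and its sign changed with single libraries left out. PCSK6-AS1, annotated on the opposite strand within it, had 65, 82 and 136 counts in the knockout, against 56, 71 and 71 in WT.

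PCSK5, a convertase with a Golgi form and a secreted form, was the lowest of the tested members. It had 92, 71 and 149 counts in the knockout, against 0, 102 and 9 in WT, or 4.53, 3.57 and 7.62 CPM in the knockout and 0, 5.17 and 0.443 CPM in WT. The groups overlapped, through WT replicate 2. The log2 fold change of 1.48 ± 1.25 (SE), with an adjusted p of 0.510 (edgeR's quasi-likelihood test with Benjamini-Hochberg adjustment), was 4.47 without that library and was as low as 0.89 when another was left out. No direction is read from it.

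PAM, the enzyme that amidates peptide ends and the only tested member that acts after the convertases, had 104, 97.2 and 146 CPM in the knockout, against 148, 144 and 139 CPM in WT. Knockout replicates 1 and 2 were below every WT library, and replicate 3 lay within the WT range. The means were 116 ± 26.7 CPM in the knockout and 144 ± 4.41 CPM in WT (SD, n = 3 each). PAM did not pass, at a log2 fold change of -0.31 ± 0.16 (SE) and an adjusted p of 0.294 (edgeR's quasi-likelihood test with Benjamini-Hochberg adjustment). Without knockout replicate 3 it was -0.52 with an adjusted p of 0.00801. In the other 5 fits with 1 library left out it did not pass, and the highest adjusted p was 0.523.

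**Figure D2:**
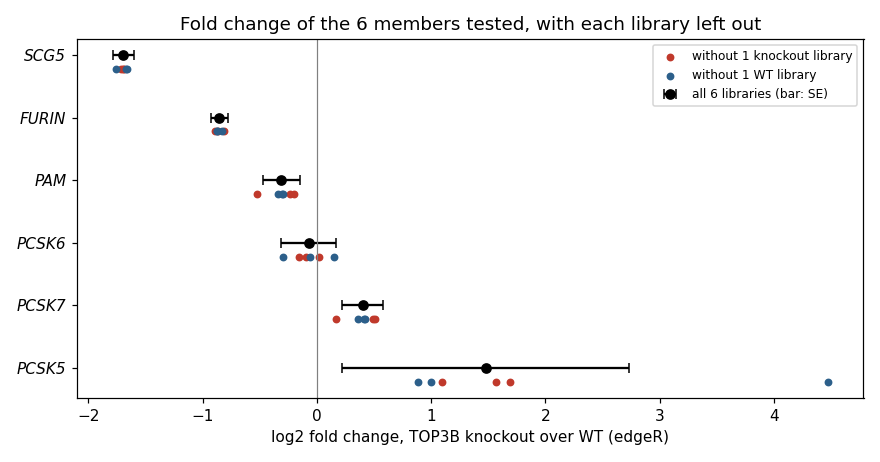
Log2 fold change, TOP3B knockout over WT, of the 6 members tested: black points with SE bars from all 6 libraries, and coloured points from fits without 1 library (red, a knockout library; blue, a WT library). SCG5 and FURIN stayed at -1.76 to -1.66 and at -0.89 to -0.82, whereas PCSK5 moved between 0.89 and 4.47.

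Levels of different genes can be compared only per length, and the length matters here because the libraries hold total RNA. Per kilobase of the longest spliced protein-coding transcript, FURIN had 105 ± 6.27 CPM per kb in the knockout and 191 ± 5.96 in WT, and SCG5 followed with 52.3 ± 0.588 in the knockout and 169 ± 11.9 in WT (SD, n = 3 each). PCSK7 was next with 28.3 ± 7.11 CPM per kb in the knockout and 21.4 ± 1.01 in WT. PAM had 21.3 ± 4.92 in the knockout and 26.4 ± 0.811 in WT on this scale, so PCSK7 and PAM overlapped in the knockout and kept apart in WT, with PAM the higher. PCSK6 had 10.6 ± 1.37 CPM per kb in the knockout and 11.1 ± 3.45 in WT, and PCSK5 had 0.550 ± 0.222 in the knockout and 0.196 ± 0.301 in WT. FURIN and SCG5 did not overlap in either group.

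The deposited RPKM gave another order, since it divides by a longer length. For SCG5 the length implied by count and RPKM was 36.4 kb, against 1.24 kb of spliced transcript and a genomic span of 55.4 kb, and for FURIN it was 7.75 kb against 4.35 kb and 14.9 kb. On the RPKM scale FURIN stayed first with 60.2 ± 1.97 in the knockout and 105 ± 1.91 in WT, and PCSK7 came second with 12.5 ± 3.58 in the knockout and 9.07 ± 0.538 in WT. SCG5 then came after PCSK7 and ahead of PAM with 0.914 ± 0.242 RPKM in the knockout and 1.08 ± 0.0276 in WT. Fold changes between the groups do not depend on which length is used, but the order of the members does. It moved the rank of SCG5, and in WT it set PAM below PCSK7 by RPKM.

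The 6 convertase genes summed to 143, 147 and 145 CPM per kb in the knockout, against 219, 229 and 222 in WT. FURIN made up 74.8%, 75.6% and 68.0% of that sum in the knockout, against 86.3%, 86.0% and 83.6% in WT. The groups did not overlap, and an exact two-sided permutation test over the 3 knockout and 3 WT libraries gave 0.1 for the share, which is the smallest p that this design allows. PCSK7 made up 16.6%, 16.7% and 25.1% in the knockout, against 10.1%, 8.82% and 9.89% in WT, with the limit from TAGLN given above. FURIN is most of the sum, so its fall by itself raises the shares of the others. The mean share of PCSK6 was 7.30% in the knockout and 4.97% in WT, although its levels overlapped, and PCSK7 itself did not pass. The shares and the test on them are therefore not a result apart from the fall of FURIN. FURIN stood at 3.91 ± 1.04 times PCSK7 in the knockout and at 8.93 ± 0.715 times PCSK7 in WT (SD, n = 3 each). SCG5 stood at 0.497 ± 0.0357 times FURIN in the knockout and at 0.888 ± 0.0664 times FURIN in WT, so the fall of SCG5 was the larger in proportion. These shares and ratios hold for the spliced length only. On the RPKM scale the mean of SCG5 was 1.81 against 60.2 for FURIN in the knockout, and 5.63 against 105 in WT.

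**Figure D3:**
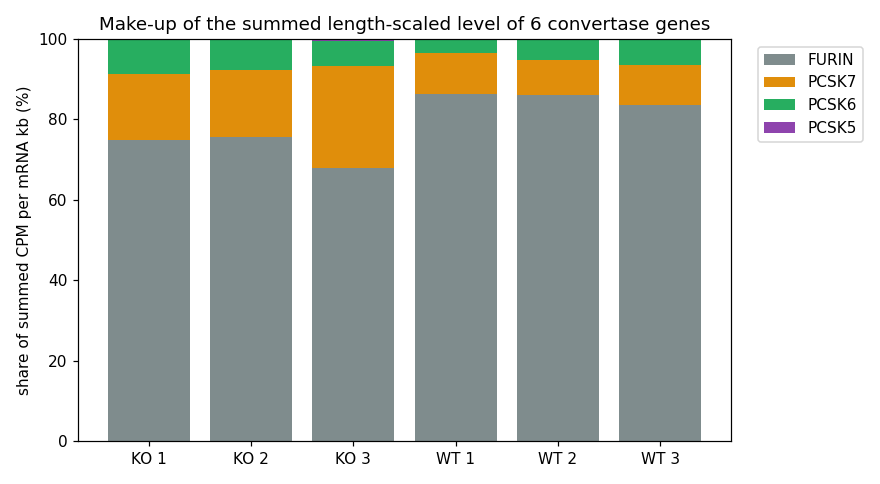
Share of each convertase gene in the summed CPM per kb of spliced transcript of 6 convertase genes, per library, with TOP3B knockout (KO) libraries on the left and WT libraries on the right; PCSK1 and PCSK2 are too small to be drawn. FURIN took 68.0% to 75.6% in the knockout, against 83.6% to 86.3% in WT.

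SCG5, FURIN and PCSK6 lie on chromosome 15, where the median log2 fold change of 459 tested genes was 0.04, against 0.05 over all genes tested. On that chromosome 23 genes (5.01%) were lower and 17 higher in the knockout at the threshold, against 4.63% and 3.21% of all genes tested. The 2 nearest tested protein-coding neighbours on each side of SCG5 did not pass. ARHGAP11A, a GTPase-activating protein gene whose span ends 1.73 kb before SCG5, had 157 ± 49.7 CPM in the knockout and 153 ± 9.00 CPM in WT (SD, n = 3 each). Its log2 fold change was 0.04 and its adjusted p 0.938 (edgeR's quasi-likelihood test with Benjamini-Hochberg adjustment). Knockout replicate 3 held 99.9 CPM of ARHGAP11A, against 183 and 189 CPM in the other knockout libraries. Without that library the log2 fold change was 0.27 with an adjusted p of 0.0558 in that test. FMN1, a formin gene 68.4 kb beyond the end of SCG5, had 132 ± 23.3 CPM in the knockout and 170 ± 9.29 CPM in WT, a log2 fold change of -0.36 ± 0.14 (SE), and an adjusted p of 0.172 in that test. Values for GOLGA8N, a golgin-family gene, were 0.08 with an adjusted p of 0.950, and for RYR3, a ryanodine receptor gene, 0.67 with an adjusted p of 0.388. The RYR3 value was 0.07 without knockout replicate 3, which held 5.94 CPM, against 2.56 and 2.16 CPM in the other knockout libraries. Within 2 Mb of the start of SCG5, 19 other genes were tested, and 0 passed by edgeR, against 7.84% of all genes tested. With 19 genes this count cannot be set apart from that share. By limma-voom the count was 0, and by DESeq2 it was 1, against 2199 of all 13965 genes. At an unadjusted p of 0.05 by edgeR it was 4, of which 2 were lower in the knockout. The share of all genes at that unadjusted threshold was not counted, so the 4 are not read as a trait of this region. The median log2 fold change of these 19 genes was 0.04.

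Around FURIN, the kinase gene FES begins 0.237 kb beyond its end and had 6.35 ± 0.768 CPM in the knockout and 7.69 ± 0.498 CPM in WT (SD, n = 3 each). The log2 fold change of FES was -0.28 with an adjusted p of 0.425 (edgeR's quasi-likelihood test with Benjamini-Hochberg adjustment). MAN2A2, a Golgi mannosidase gene 18.8 kb away, had a log2 fold change of 0.39 ± 0.13 (SE) and an adjusted p of 0.113 in that test, and passed when knockout replicate 3 was left out, at 0.48 with an adjusted p of 0.0169. BLM, a RecQ helicase gene on the other side, had a log2 fold change of 0.89 with an adjusted p of 0.489, and single libraries moved it: it was 0.19 without knockout replicate 2, 0.41 without WT replicate 3 and 1.33 without WT replicate 1. CRTC3, a coactivator gene further out, had -0.02 with an adjusted p of 0.962. Of 33 other genes tested within 2 Mb of FURIN, 2 fell, ABHD2 and POLG, and 1 rose, FANCI, all over 1 Mb away. Over all genes tested 4.63% fell and 3.21% rose, and counts this small cannot be set apart from these shares. The names ABHD2, POLG and FANCI were chosen after their values were seen.

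**Figure D4:**
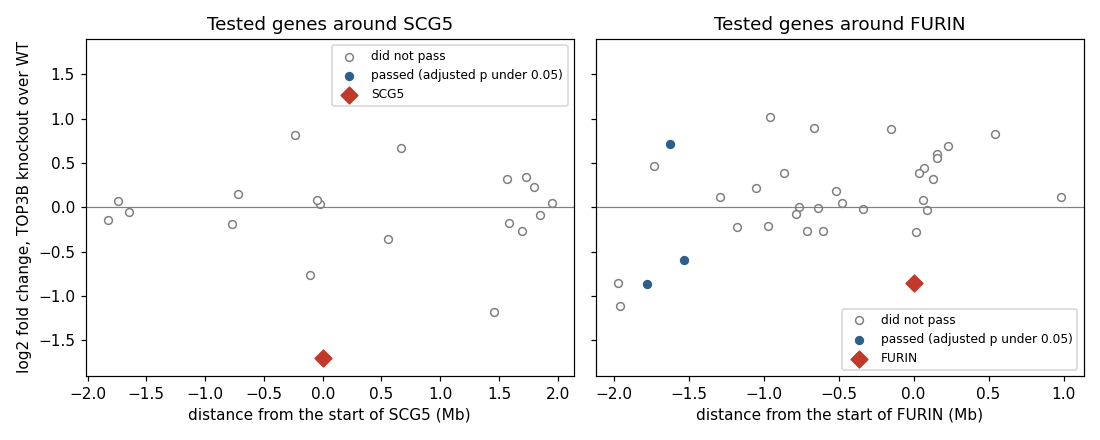
Log2 fold change, TOP3B knockout over WT, of tested genes within 2 Mb of the start of SCG5 (left) and FURIN (right) against their distance from that start; filled circles passed an adjusted p of 0.05 and the diamond is the member itself. Near SCG5 the other 19 genes had a median of 0.04, and near FURIN the other 33 had a median of 0.11.

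Genes whose pattern over the 6 libraries was most like that of SCG5 were found by the root mean square distance of their centred log2 CPM, and the order describes these libraries only. SLITRK4, a neuronal transmembrane protein gene, was nearest at 0.0453, with 2.33 ± 0.0993 CPM in the knockout and 7.91 ± 0.884 CPM in WT (SD, n = 3 each). LTBP1, which binds latent TGF-beta in the matrix, followed at 0.0973 and was the most abundant of the 5, with 191 ± 5.93 CPM in the knockout and 550 ± 21.6 CPM in WT. SLC12A8, a solute carrier gene, stood at 0.116, N4BP2L2 at 0.117 and the mucin gene MUC1 at 0.118. Their log2 fold changes lay between -1.76 and -1.53, and they lie on chromosomes X, 2, 3, 13 and 1, none on chromosome 15. FURIN ranked 279 at a distance of 0.427, and PAM ranked 2208 at 0.705. PCSK6, PCSK7 and PCSK5 ranked 5233, 8943 and 12621, so FURIN was the nearest member. All ranks are among the tested genes averaging 1 CPM or more, and they rest on the SCG5 values by which the set was chosen.

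The proteins that furin-type convertases cut were taken as a list of 42 genes known as substrates, of which 37 were tested. Of these, 4 fell, 2 rose and 31 did not pass, and their median log2 fold change was -0.18, against 0.05 over all genes tested. Over all genes 4.63% were lower and 3.21% higher at that threshold. By DESeq2, which passed 1283 genes as lower and 916 as higher among all 13965, 8 of the substrates fell and 2 rose. At an unadjusted p of 0.05 by edgeR the count in both directions was 12, of which 10 were lower in the knockout. That threshold is looser than the one behind the 4.63% and 3.21%. The share of all genes at the looser threshold was not counted, so the 12 are not read as more or fewer than that share. L1CAM, a neuronal adhesion molecule, had 2.56, 3.98 and 3.43 CPM in the knockout, against 19.7, 19.4 and 21.2 CPM in WT. It fell by 6.05-fold, a log2 fold change of -2.60 ± 0.21 (SE) with an adjusted p of 0.00229 (edgeR's quasi-likelihood test with Benjamini-Hochberg adjustment), and passed with each library left out. INSR, the insulin receptor, rose 2.64-fold, with 12.8, 19.2 and 12.4 CPM in the knockout, against 4.38, 4.61 and 7.82 CPM in WT, and an adjusted p of 0.0404 in the same test. The other genes of the list that passed were the receptor NOTCH3 at a log2 fold change of -2.15, the parathyroid-hormone-related gene PTHLH at -2.42, the metalloprotease MMP16 at -0.63 and the integrin ITGA6 at 0.75; these were named after their values were seen, to complete the counts.

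With 1 library left out, 1 to 2 substrates fell and 0 rose without knockout replicate 1 or 2 or any WT replicate, and 7 fell and 3 rose without knockout replicate 3. NOTCH3 passed in 5 of the 6 fits and missed without WT replicate 2, at an adjusted p of 0.0550. INSR, PTHLH, MMP16 and ITGA6 each passed in 1 of the 6, the fit without knockout replicate 3, and their highest adjusted p-values were 0.152, 0.102, 0.118 and 0.127. Their fold changes kept their direction in all 6 fits: the log2 fold change lay between 1.17 and 1.71 for INSR, between -2.64 and -2.07 for PTHLH, between -0.68 and -0.55 for MMP16 and between 0.62 and 0.84 for ITGA6. The count of genes that passed also dropped over all genes in the same 5 fits, to between 223 and 388, against 1095 with all libraries. In the 10 fits with another tool, scaling or filter, MMP16 passed in 7 and ITGA6 in 8. INSR, PTHLH, NOTCH3 and L1CAM passed in all 10 of these.

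Peptide hormone precursors, the classical substrates of PCSK1 and PCSK2, mostly had too few counts to be tested. Of 28 in the table, 16 had 0 counts in every library and 3 were tested. UCN, the precursor of the stress peptide urocortin, fell, with 4.38, 4.48 and 3.53 CPM in the knockout, against 8.66, 9.08 and 7.97 CPM in WT. Its log2 fold change was -1.05 ± 0.20 (SE) with an adjusted p of 0.0293 (edgeR's quasi-likelihood test with Benjamini-Hochberg adjustment), and UCN passed in 1 of the 6 fits with 1 library left out. The other tested precursors did not pass. Over all genes tested 4.63% fell, and a list of 3 genes cannot be set apart from that share. The granin-like list had 1 tested gene, CHGB, at 1.38 ± 0.909 CPM in the knockout and 1.24 ± 0.344 CPM in WT (SD, n = 3 each), which did not pass by edgeR, DESeq2 or limma-voom.

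Of 16 tested genes of dense-core vesicle exocytosis, 1 fell and their median log2 fold change was 0.06, and over all genes 7.84% passed in either direction and 4.63% fell, so this count is near that of all genes. That gene was RAB27A, a small GTPase that docks secretory vesicles, with 25.7, 25.3 and 26.2 CPM in the knockout, against 44.6, 45.4 and 41.0 CPM in WT. Its log2 fold change was -0.76 ± 0.11 (SE) with an adjusted p of 0.0125 (edgeR's quasi-likelihood test with Benjamini-Hochberg adjustment). Among 11 tested genes that inhibit or move furin, 1 fell, with a median of -0.10, which is also near the share over all genes. By DESeq2 3 of these 11 fell, against 1283 of all 13965 genes. GBP2, an interferon-induced GTPase known to curb furin activity, had 13.0, 5.24 and 10.7 CPM in the knockout, against 29.8, 23.0 and 26.4 CPM in WT, a log2 fold change of -1.45 ± 0.33 (SE) with an adjusted p of 0.0447 in that test.

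The other convertases and carboxypeptidases gave 5 tested genes, of which 0 passed by edgeR, 0 at an unadjusted p of 0.05 and 0 by DESeq2 or limma-voom, with a median log2 fold change of 0.01. CPD, the Golgi carboxypeptidase that trims the products of furin, had 122 ± 53.9 CPM in the knockout and 121 ± 12.4 CPM in WT (SD, n = 3 each), its wide knockout spread coming from 59.4 CPM in replicate 3. MBTPS1, the convertase that activates sterol-regulated transcription factors, had 20.2 ± 1.79 CPM in the knockout and 17.5 ± 3.07 CPM in WT. Copper and ascorbate genes and PAM partners gave 5 tested genes with a median of 0.54, of which 0 passed by edgeR, 1 at an unadjusted p of 0.05 and 1 by DESeq2. Over all 13965 genes 7.84% passed by edgeR and 2199 genes by DESeq2, and lists of 5 genes cannot be set apart from these shares. ATOX1, the copper chaperone, had 27.4 ± 0.923 CPM in the knockout and 28.5 ± 3.07 CPM in WT, and KALRN, a PAM-binding exchange factor, had 24.3 ± 12.3 CPM in the knockout and 6.15 ± 3.67 CPM in WT. KALRN was the gene with the unadjusted p under 0.05, and its adjusted p was 0.102 by edgeR's quasi-likelihood test. Knockout replicate 3 held 10.1 CPM of it, against 30.8 and 32.0 CPM in the other knockout libraries, and its fit without that library is not given here. REST and its corepressors, which hold granin and other neuronal genes silent in non-neural cells, gave 5 tested genes. REST itself, RCOR1 and RCOR2 had too few counts to be tested. The median of the 5 was -0.12, and 1 rose, against 3.21% of all genes tested. HDAC1, a deacetylase of that complex, had 24.4, 26.2 and 28.5 CPM in the knockout, against 18.0, 17.6 and 17.2 CPM in WT, a log2 fold change of 0.58 ± 0.13 (SE) with an adjusted p of 0.0423 (edgeR's quasi-likelihood test with Benjamini-Hochberg adjustment). The more abundant deacetylase HDAC2 went the other way, with 340 ± 50.1 CPM in the knockout and 424 ± 15.1 CPM in WT. It did not pass, at a log2 fold change of -0.32 ± 0.12 (SE) and an adjusted p of 0.164 in that test, and was named after its values were seen. UCN, RAB27A, GBP2 and HDAC1 each passed in 1 of the 6 fits with 1 library left out, the one without knockout replicate 3, with highest adjusted p-values of 0.113, 0.0736, 0.140 and 0.157. Their log2 fold changes in those 6 fits lay between -1.11 and -0.96 for UCN, between -0.81 and -0.73 for RAB27A, between -1.73 and -1.16 for GBP2 and between 0.51 and 0.63 for HDAC1. In the 10 fits with another tool, scaling or filter, UCN passed in 10, RAB27A in 9, and GBP2 and HDAC1 in 7 each, and the highest adjusted p-values there were 0.0553 for GBP2 and 0.0823 for HDAC1.

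**Figure D5:**
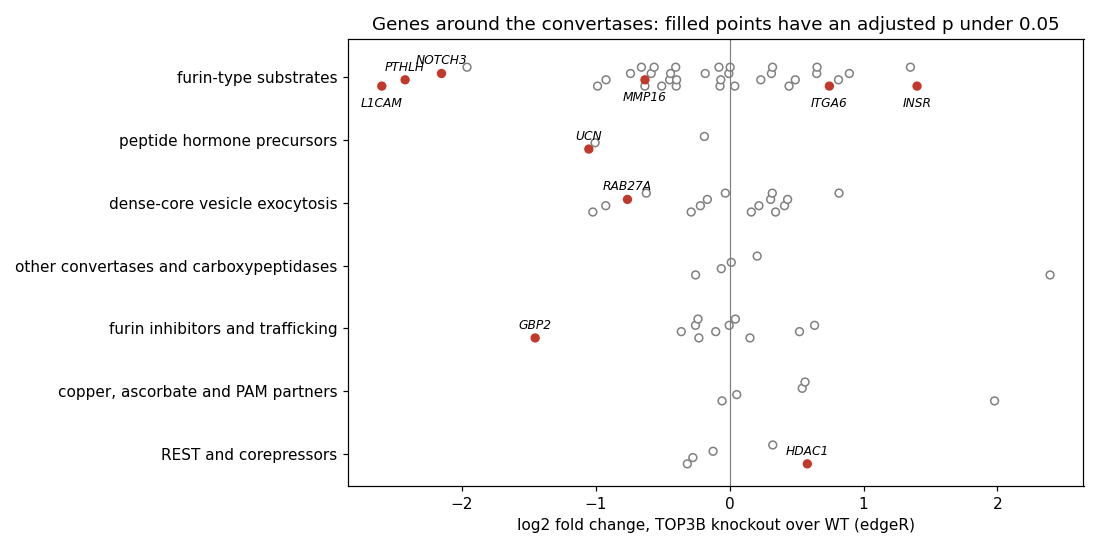
Log2 fold change, TOP3B knockout over WT, of the tested genes of 7 lists around the convertases, 1 point per gene, with small vertical offsets for legibility; filled red points have an adjusted p under 0.05 and are named. Of the 37 furin-type substrates 4 fell and 2 rose, and L1CAM lay lowest at -2.60.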

How the data were processed

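Total RNA of HT1080 cells was sequenced after ribosomal RNA depletion with a directional kit, per the labels' protocols. The authors deposited a table of estimated counts, rounded to whole numbers, and a table of RPKM values, both with 1 value for each gene in each library. Salmon 1.10.1 and the hg19 build are listed, per the submitters' processing notes, but no source used here says what each was used for. Positions are from GENCODE v29 on GRCh38. One row, named E2F1 in one table and E2F2 in the other, was left out.

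The quasi-likelihood F test of edgeR 4.0.16 (R 4.3.3, TMM scaling, no covariates) was run on the 13965 genes kept by filterByExpr. Adjusted p-values are Benjamini-Hochberg over these genes, and a gene passed below 0.05. Each SE was computed from the test's F value. CPM values use TMM-scaled library sizes. The tests were tested on simulated data. Alternatives used DESeq2 1.42.0, limma 3.58.1 (voom, and log2 RPKM with a pseudocount of 1 or 0.1), other scalings and filters, robust estimation and each library left out.

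Named genes were the 10 members, TOP3B, the nearest 2 tested protein-coding neighbours on each side of SCG5 and of members that passed, the 5 genes most like SCG5 among those averaging 1 CPM or more, and per list at most 2 genes that passed with the largest change, 1 per direction where both had calls, or else the 2 most abundant. Members and lists were chosen with earlier results of these data known. Groups followed the labels, and knockout replicate numbers follow the order of deposition.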

Additional observations from a re-analysis of the deposited data

How the results depend on the processing

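SCG5 was lower, and FURIN was lower and passed, under all 16 alternatives. Of the 5 tested members other than SCG5, FURIN was the 1 that passed in each, except without knockout replicate 3, where PAM was added. Among all genes 1095 passed, against 2199 by DESeq2 and 223 to 1899 with 1 library left out, the lowest without WT replicate 2 and the highest without knockout replicate 3. Single-library fits without knockout replicate 1 or 2, or WT replicate 1 or 3, gave 388, 359, 279 and 256. The cause was not tested. Genes that did not pass changed sign as follows. PCSK6 was 0.016 on log2(RPKM + 0.1) and -0.30 to 0.15 with 1 library left out. ARHGAP11A was -0.016 by limma-voom and -0.11 to 0.27 with 1 left out, and GOLGA8N was -0.23 to 0.82. CRTC3 was 0.018 and 0.038 on log2 RPKM with a pseudocount of 1 and 0.1, 0.014 with upper quartile scaling, 0.037 with library size alone and -0.16 to 0.078 with 1 left out. On log2(RPKM + 1) the SCG5 difference was -1.24, since the pseudocount weighs on low values. No paired analysis was possible because the knockout labels carry no replicate numbers. Counts under 10 limit PCSK2, WT replicate 1 holds most counts of PCSK1 and CPE in WT, and WT replicate 2 most of those of PCSK5, which did not pass with or without it.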
